A study of Mus musculus with 96 samples.

Results

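Mouse embryonic fibroblasts (MEFs) with the strongest mitotic transcript signal were compared with those with the weakest. The summed level of 18 mitotic genes ranked the 44 MEF wells of a 96-well plate, and the 14 highest wells formed the high-score group and the 14 lowest the low-score group, with 16 wells between them. The plate also held 48 wells of R1 embryonic stem (ES) cells and 4 negative control wells, and all 96 samples were read by single-cell tagged reverse transcription (STRT), which captures transcripts at their 5′ ends and keeps the strand. Each ES cell or MEF well held 1 cell, and all wells carry 1 library label. The MEFs had been grown in DMEM medium with fetal bovine serum, penicillin/streptomycin, Glutamax and 2-mercaptoethanol, and no well received any other treatment per the labels. For MEF wells, too, the labels enter R1, an ES cell line, as the source, against the labelled cell type. Strain, genotype, embryo age, passage and separate cultures are not named for the MEFs. Levels are reads of a gene scaled to a total of 1e6 gene reads in the well (CPM). As cells of 1 culture are not replicates and the groups were formed from the same counts, differences are described by size only, with no test.

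Dividing cells pass through DNA synthesis (S phase), a second gap phase (G2) and mitosis (M). Transcripts of mitotic cyclins, spindle kinases, kinesins and centromere proteins accumulate from late S phase to mitosis, when the FOXM1 and B-MYB factors act with the MuvB complex at their promoters. The same genes are held low in resting cells by the related DREAM complex. Primary MEFs divide in culture for a limited number of passages, and fewer of them divide as stress and inhibitors such as p21, p16 and p15 build up.

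The score separated 5 wells from the rest and not 14. These were MEF replicate 80 at 8170.0 CPM, replicate 51 at 6719, replicate 50 at 6587, replicate 58 at 5473 and replicate 89 at 3819.7. The 6th well, replicate 81, stood at 434 CPM, 8.80-fold below the 5th. The other 8 wells of the high-score group descended from there to 84.1 CPM in replicate 84, just inside the limit, against 74.5 in replicate 52, just outside it. The low-score group began at 24.3 CPM in replicate 83, next to 27.5 in replicate 72 just outside it, and ended at 0 in replicates 53 and 85, with a median of 10.8. The 5 highest wells held 23739 of the 25775 reads that the 18 genes had in all MEF wells, the next 9 wells 1248 and the low-score group 132. The limit between the high-score group and the rest therefore fell on a continuous slope, as the plot of the score by rank shows. The 5 wells were set apart after the scores had been seen, and values are given for them and for the next 9 wells beside those of the whole group.

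**Figure D1:**
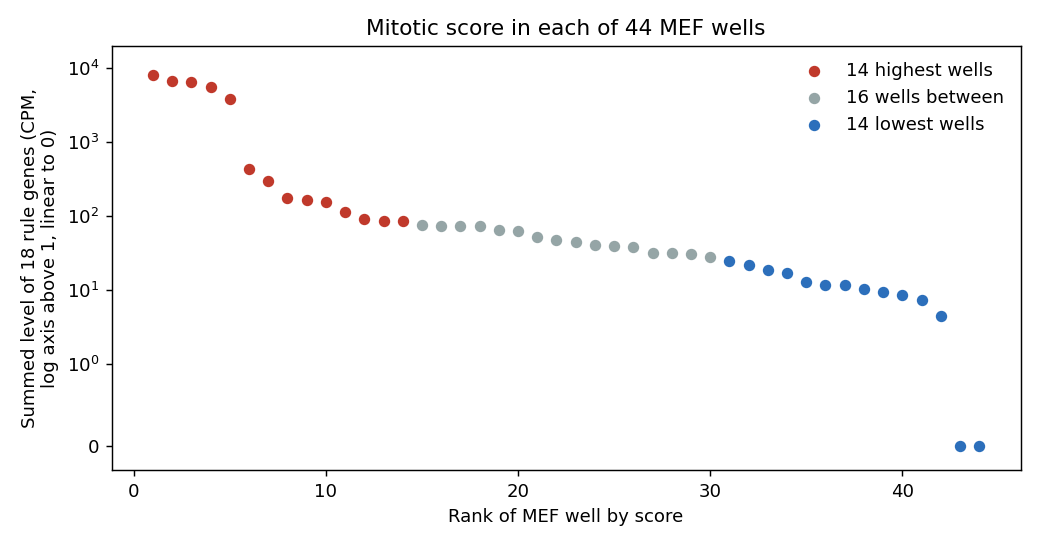
Summed level of the 18 mitotic genes (CPM, log axis, linear below 1) in each of the 44 MEF wells, ordered by rank; each point is 1 well, coloured by group. The 5 leftmost wells lie at 3819.7 CPM or more, and the 6th well, at 434, begins a slope that runs through all other groups to 0.

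The label of cycling cells was checked against Mki67, Top2a and Ccnb1, which themselves entered the score. Mki67, which codes for the proliferation antigen Ki-67, read 779.6, 765, 624, 364 and 264 CPM in replicates 80, 51, 50, 58 and 89. In the next 9 wells it was read in 1 well, at 20.9 CPM, and in the low-score group it reached at most 4.87. Top2a, the topoisomerase that untangles sister chromatids, read 444, 363, 1548, 1008 and 1011 CPM in the same 5 wells, 0 to 95.3 in the next 9 and 0 to 18.6 in the low-score group. Ccnb1, cyclin B1 of the kinase that drives entry into mitosis, read 209, 547, 858, 137 and 343 CPM, against at most 5.51 in the next 9 wells and 2.84 in the low-score group. All 3 markers thus fitted the label in 5 of the 14 wells, and for Mki67 and Ccnb1 the next 9 wells lay in the range of the 16 wells between the groups, which reached 46 and 11.5 CPM. The 14 wells are called high-score wells here for that reason.

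Most of the 18 genes followed the same division. As their sum ranked the wells, high values in the top wells were set by the ranking and are no further evidence of the division. Cdk1, the kinase partner of cyclin B, ranged from 72 to 675 CPM in the 5 highest wells, was read in 5 of the next 9 wells at up to 163, and did not exceed 2.11 in the low-score group. Cyclin A2, Ccna2, ranged from 0 to 294 CPM in the 5 wells, to 4.81 in the next 9 and to 0.710 in the low-score group. Aurka, a kinase of the spindle poles, ranged from 0 to 984, to 3.20 and was listed at 0 in the low-score group. Ube2c, the ubiquitin-conjugating enzyme of the anaphase-promoting complex, ranged from 114 to 731 CPM, to 153 and to 6.01. Hmmr, a spindle assembly factor, ranged from 31.3 to 517, to 274 and to 8.45. In the next 9 wells 1 gene made up a median of 58.3% of the score, from 33.6% to 95.2%, and that gene was Cdk1 in 3 wells, Top2a in 2 and Ube2c, Hmmr, Tpx2 or Cdc20 in 1 each. Ccnb2, Plk1, Aurka and Kif11 had no read in any low-score well. After every well had been thinned to 60000 gene reads, so that depth no longer differed, 8 to 18 of the 18 genes were read in the 5 highest wells, 1 to 6 in the next 9 and 0 to 2 in the low-score group. The map of the 18 genes over all wells shows this division.

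**Figure D2:**
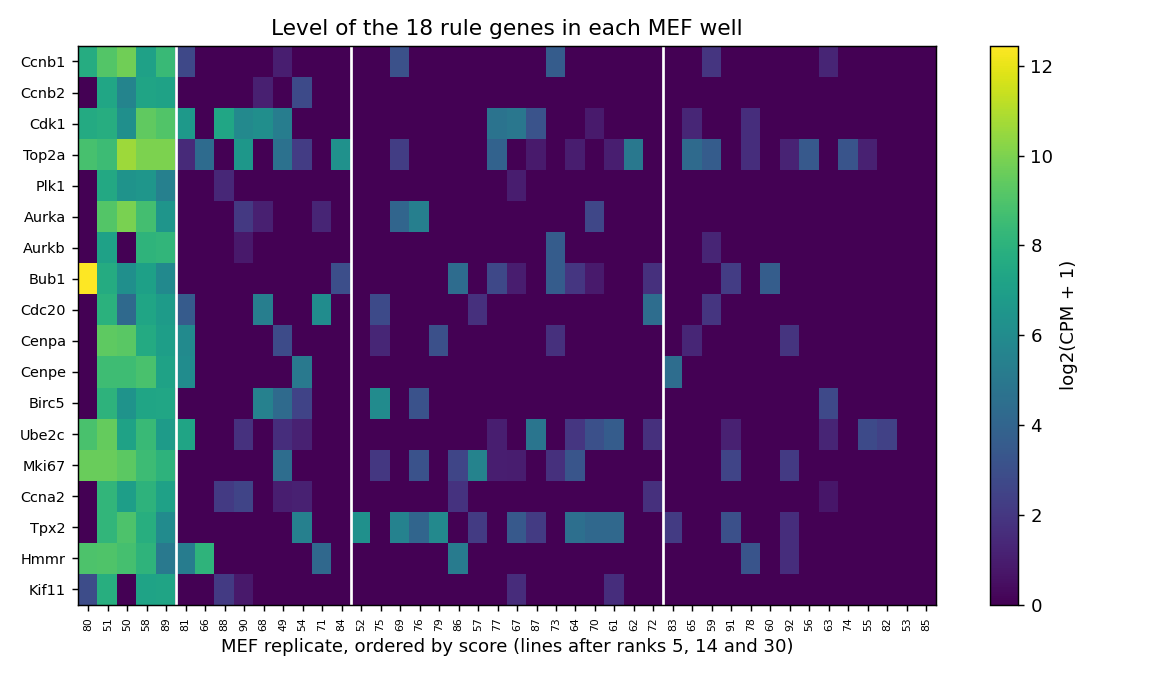
Level of the 18 score genes (rows) in each MEF well (columns, labelled by replicate and ordered by score), as log2(CPM + 1); white lines follow ranks 5, 14 and 30. The first 5 columns are filled almost throughout, apart from replicate 80, and columns after them hold scattered values.

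Replicate 80, the highest well, was unlike the other 4. Only 8 of the 18 genes had a read there, and Bub1, a spindle checkpoint kinase, made up 68.1% of its score at 5565 CPM, against 59.5 to 202 in replicates 51, 50, 58 and 89. It had no read for Ccnb2, Plk1, Aurka, Aurkb, Cdc20, Cenpa, Cenpe, Birc5, Ccna2 or Tpx2. This well had 157772 gene reads, so that 1 read was worth 6.34 CPM and a count of 0 allowed up to 19 CPM by counting error. The levels of Ccnb2, 48.0 to 165 CPM in the other 4 wells, and of Aurka, 89.7 to 984, lay above that limit, which covers counting error only. Replicate 50 was as shallow, with 166691 gene reads, and had reads for 16 of the 18 genes.

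The promoters of the score genes carried the sequence elements of cell cycle genes more often than other promoters. A pair of short elements is known from G2 and M phase genes, the cell cycle genes homology region (CHR), searched as TTTGAA on both strands, and the CCAAT box, searched as CCAAT on both strands. In RefSeq (GRCm38.p6), 15 of the 18 genes had a promoter entry, and the 250 bases before the start held a CHR in 7 of 15 (46.7%) and a CCAAT box in 14 of 15 (93.3%). For the 61 listed G2 and M phase genes outside the score, 47 genes matched with 53 promoters, of which 34% held a CHR and 69.8% a CCAAT box. The corresponding shares were 10.2% and 35.2% of 8924 promoters of all genes tested, and 16% and 33.8% of all 32851 promoters in the table. Among 47 promoters of S phase genes they were 12.8% and 55.3%, and E2F elements (TTTCGCGC or TTTGGCGC on either strand) were found in 12.8%, against 1.3% of tested promoters. CHR and CCAAT matches can share a base where they adjoin, and a match is a description of sequence only. The 250 bases before the start are printed for the 3 marker genes and for Nusap1, a spindle protein gene outside the score that was high in all 5 wells, with CHR and CCAAT matches of either strand in capitals. The Mki67 promoter lies at chr7:135716380-135716629 on the minus strand, that of Top2a at chr11:99024190-99024439 on the minus strand, that of Ccnb1 at chr13:100786487-100786736 on the minus strand and that of Nusap1 at chr2:119618048-119618297 on the plus strand.
Mki67: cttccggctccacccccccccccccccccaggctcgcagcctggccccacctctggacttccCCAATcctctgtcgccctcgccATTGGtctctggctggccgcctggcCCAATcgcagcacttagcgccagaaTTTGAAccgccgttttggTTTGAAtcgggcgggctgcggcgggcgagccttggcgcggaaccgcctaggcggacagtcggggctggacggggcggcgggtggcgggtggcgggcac
Top2a: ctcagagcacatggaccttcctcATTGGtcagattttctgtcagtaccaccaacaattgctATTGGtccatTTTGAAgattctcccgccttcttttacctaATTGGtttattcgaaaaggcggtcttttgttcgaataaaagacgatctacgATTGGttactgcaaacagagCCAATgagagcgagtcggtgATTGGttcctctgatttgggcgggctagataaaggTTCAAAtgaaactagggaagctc
Ccnb1: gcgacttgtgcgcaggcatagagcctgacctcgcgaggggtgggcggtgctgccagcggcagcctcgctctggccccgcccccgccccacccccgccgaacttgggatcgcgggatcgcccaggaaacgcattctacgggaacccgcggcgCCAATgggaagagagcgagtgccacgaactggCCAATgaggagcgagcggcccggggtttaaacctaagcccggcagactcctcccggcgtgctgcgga
Nusap1: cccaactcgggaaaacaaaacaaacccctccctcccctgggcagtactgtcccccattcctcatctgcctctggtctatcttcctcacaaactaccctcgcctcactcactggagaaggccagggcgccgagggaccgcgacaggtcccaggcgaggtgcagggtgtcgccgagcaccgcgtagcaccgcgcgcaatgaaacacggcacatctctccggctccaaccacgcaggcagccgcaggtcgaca
The Mki67 promoter held 2 CHR and 3 CCAAT matches, that of Top2a 2 and 6, and that of Ccnb1 0 and 2. Nusap1 had 0 of either in this window.

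Median depth was similar in both groups, while the shallowest wells of the low-score group were shallower. Gene reads per well ran from 153058 to 1657876 in the high-score group (median 851801) and from 63938 to 1471185 in the low-score group (median 762756). Their Spearman correlation with the score over the 44 wells, which share 1 library and enter the CPM denominator, was 0.05. Gene reads per spike-in read, a measure of the RNA in a well, had medians of 164 and 145. At 60000 reads a median of 4717 genes was detected in high-score wells and 4561 in low-score wells, and 5538 in the 5 highest. Plate position was uneven, with 10 high-score wells in rows A to D and 4 in rows E to H, against 8 and 6 low-score wells. The negative control wells had 9 reads of score genes in all, 6 of them Mki67, among 12527 gene reads. The ES cell wells with enough reads (45 of 48) had scores from 0 to 5000.1 CPM with a median of 1218, and 1 of 45 reached the level of the 5th MEF well.

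Outside the score genes, 9754 genes had at least 100 reads over the 28 wells and were compared. The comparison asked which other transcripts differed between high-score and low-score MEFs, as the log2 ratio of mean CPM with 10 CPM added, and a gene is called higher or lower here where the ratio reached 2-fold. Of these, 1338 genes (13.7%) were higher in the high-score group and 913 (9.36%) lower, and the median gene stood at a log2 ratio of 0.10. Few of these calls were independent of single wells. With each of the 28 wells left out in turn, 426 genes (4.37%) stayed higher and 175 (1.79%) stayed lower. By group medians the counts were 1142 (11.7%) higher and 519 (5.32%) lower. No gene (0%) had groups of 14 and 14 wells that did not overlap. When the 5 highest wells alone were set against the low-score group, 1777 genes (18.2%) were higher and 1693 (17.4%) lower. For the next 9 wells the counts were 1169 (12%) and 1143 (11.7%), about equal in both directions, with a median log2 ratio of 0.01. A share of a gene list near these values is not a result about that list.

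G2 and M phase genes that the score did not use were higher in the 5 highest wells and not in the other 9. Of 61 listed genes, 60 were in the table and 56 had enough reads. In the whole high-score group, 44 of 56 were higher and 0 lower, with a median log2 ratio of 1.90, or 2.23 when the 14 genes without a read in the low-score group were taken at the lowest ratio that a floor of 3 reads over that group allows. A gene could reach the read minimum through the high-score group alone, so these counts describe the tested genes and support nothing further. Of the 44, 12 were among the 14 without a low-score read, and 32 were among the 42 with one. With any single well left out, 33 stayed higher. In the 5 highest wells, 52 of 56 were higher and 0 lower, with a median of 3.04. In the next 9 wells, 4 (Pttg1, Cks2, Arl6ip1 and Prc1) were higher and 3 (Mad2l1, Smc2 and Cdc25b) lower, with a median of 0.00. Of all genes, 13.7% were higher and 9.36% lower in the whole group. The shares were 18.2% and 17.4% in the 5 wells and 12% and 11.7% in the next 9. The summed level of the list was 4829.8 to 10747 CPM in the 5 wells, 255 to 2823 in the next 9, 305 to 1196 in the wells between and 125 to 1244 in the low-score group. The 5 wells thus lay above all others, while 7 of the other 9 lay in the range of the low-score group and replicates 81 and 66, at 2823 and 1398 CPM, lay above it.

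Among these genes, those of the central spindle and of cell division read as follows in replicates 80, 51, 50, 58 and 89. Nusap1, a microtubule bundling protein, read 564, 179, 108, 97.1 and 205 CPM, and its highest value in any other MEF well was 4.87. Anln, the anillin of the cleavage furrow, read 127, 297, 588, 341 and 432 CPM, against at most 77.9 elsewhere. Both had all 5 wells above all 39 others. Racgap1, a protein of the central spindle, read 355, 121, 0, 142 and 482 CPM, and 0 to 41.3 in the low-score group. Prc1, which cross-links midzone microtubules, had no read in replicate 80 and read 854, 348, 197 and 345 CPM in the other 4 wells, against 0 to 33.8 in the low-score group. Kif20a, a kinesin of cytokinesis, likewise had no read in replicate 80 and read 322, 564, 120.0 and 127 CPM, against at most 3.10. The log2 ratio of the whole group was 3.16 for Nusap1 (2.42 without replicate 80), 3.13 for Anln (3.75 without replicate 60), 2.74 for Racgap1 (2.13 without replicate 89), 3.48 for Prc1 (2.79 without replicate 51) and 3.21 for Kif20a (2.50 without replicate 50). All 5 stayed above 2-fold. Replicate 80 was therefore low for some of these genes and among the highest for others.

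Other genes of the list with roles at kinetochores or in regulation differed in how far they followed the 5 wells. Ndc80, which couples kinetochores to microtubules, read 196, 44.3, 0, 35.6 and 189 CPM in replicates 80, 51, 50, 58 and 89 and had no read in any of the 39 other MEF wells. Its pooled level in the high-score group was at least 102-fold higher than a floor of 3 reads in the low-score group. Cenpf, a kinetochore protein of G2 and mitosis, read 0, 211, 396, 19.3 and 169 CPM, and 0 to 27.2 in the low-score group. Foxm1, the transcription factor of the programme, read 0, 110.0, 0, 167 and 89.7 CPM, against a mean of 1.07 in the low-score group. Melk, a kinase of dividing cells, read 0, 218, 12, 119 and 1086 CPM, so that its log2 ratio of 3.20 dropped to 1.60 without replicate 89. Arl6ip1, which shapes the endoplasmic reticulum, and Cks2, a subunit of cyclin-dependent kinases, also had reads in 12 and 6 of the 14 low-score wells. The checkpoint gene Mad2l1 read 0, 82.3, 0, 91.1 and 62.5 CPM in the 5 wells, had no read in the next 9 and averaged 23.2 CPM in the low-score group. Its whole-group ratio of -0.31 turned to 1.26 without the low-score replicate 83. Bub3, another checkpoint gene, had reads in 9 of 14 low-score wells and averaged 142 against 84.6 CPM, under 2-fold, with a ratio of 2.33 without the low-score replicate 53. The ratio of Arl6ip1, 1.19, dropped to 0.95, under 2-fold, without replicate 81. Detection at 60000 reads gave the same order, with 21 to 56 listed genes read in the 5 highest wells, 6 to 17 in the next 9 and 2 to 11 in the low-score group.

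S phase genes were higher in the same 5 wells. Of 52 listed genes, 43 had enough reads, and 24 were higher and 0 lower in the high-score group, with a median log2 ratio of 1.30 (1.58 with the 7 genes unread in the low-score group at their bound). Here too 4 of the 24 were among genes without a low-score read, and 20 were among the 36 with one. With any single well left out, 17 stayed higher. In the 5 wells, 38 of 43 were higher and 1, Tyms, was lower, with a median of 2.12, and in the next 9 wells 6 were higher and 3 lower, with a median of 0.00. Of all genes, 13.7% were higher and 9.36% lower in the whole group, and 18.2% and 17.4% in the 5 wells. The counts in the next 9 wells were near the 12% and 11.7% of all genes there. The summed level of the list was 2847 to 7974 CPM in the 5 wells, 137 to 1241 in the next 9 and 62.6 to 1229 in the low-score group. As with the G2 and M phase list, the 5 wells lay above all 39 others, and the next 9 lay in the range of the low-score group apart from replicate 81, just above it at 1241.

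Nucleotide synthesis genes were the most even across the 5 wells. Rrm2, the regulated subunit of ribonucleotide reductase, read 659, 679.8, 768, 694 and 932 CPM in replicates 80, 51, 50, 58 and 89, and its highest value elsewhere was 395. Rrm1, the large subunit, read 235, 180.4, 222, 266 and 253 CPM there, with a median of 27.4 in the next 9 wells and 0 in the low-score group. In replicate 81, the 6th well, Rrm1 was higher than in any of the 5, as the value of 578 CPM at the top of the next 9 belonged to it. The log2 ratios of the whole group were 2.87 for Rrm2 and 2.80 for Rrm1.

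Initiation and replication fork genes differed more from well to well. Tipin, a replication fork protection factor, read 1990.2, 42.7, 0, 133 and 241 CPM, and its log2 ratio of 4.14 dropped to 2.19 without replicate 80. Ccne1, cyclin E1 of the G1 to S transition, read 1065, 18.2, 0, 90.5 and 399 CPM, and its ratio of 3.49 dropped to 2.19 without the same well. Uhrf1, which guides DNA methylation at the fork, read 843, 227, 0, 129.7 and 73.6 CPM, with 3.36 and 2.24 as the values with and without replicate 80. Mcm2, a subunit of the replicative helicase, read 0, 107, 0, 135 and 166 CPM, against a mean of 4.70 in the low-score group. Pcna, the sliding clamp of DNA polymerase, read 241, 116, 336, 192 and 87.7 CPM in the 5 wells but up to 434 CPM in a low-score well, and its whole-group log2 ratio was 0.12, which turned to -0.27 without replicate 50 and became 0.77 without the low-score replicate 83. Replicate 80 thus carried the largest values of Tipin, Ccne1 and Uhrf1 among the 5 wells.

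The balance of both lists differed among the 5 wells, as the plot of the summed levels shows. Replicate 80 had the highest S phase sum of the 5 (7974 CPM) and the lowest G2 and M sum (4829.8). Replicate 51 had the highest G2 and M sum (10747 CPM) and the lowest S phase sum (2847). Replicates 50, 58 and 89 lay at 2922, 4324 and 6005 CPM for S phase and at 6641, 7786 and 9707 for G2 and M. Replicate 81 stood apart from both clouds with 1241 and 2823 CPM.

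**Figure D3:**
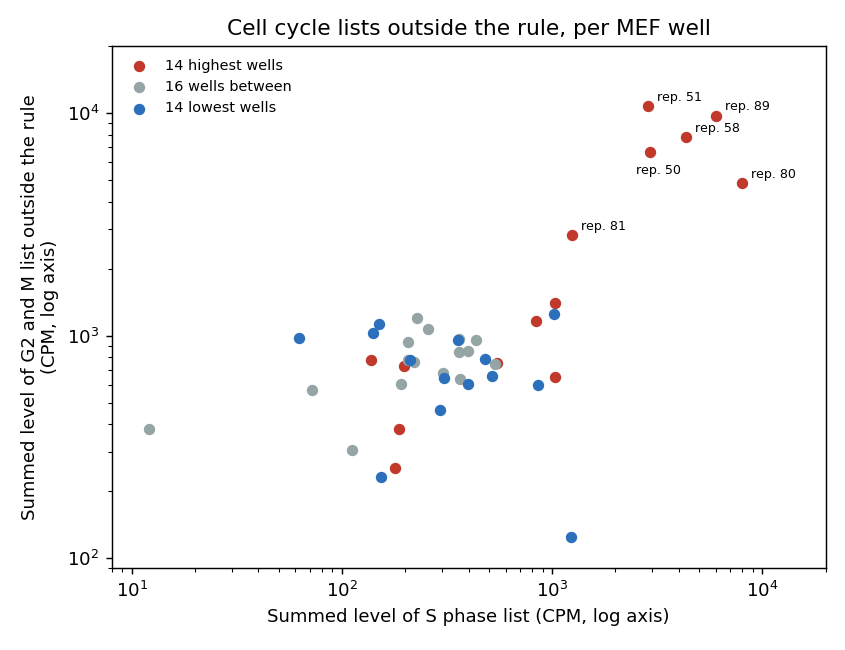
Summed level of the G2 and M phase list outside the score against that of the S phase list (CPM, both axes log) for each MEF well; each point is 1 well, coloured by group, and the 6 wells of highest score are labelled by replicate. The 5 highest wells fill the upper right corner, replicate 81 lies between them and the rest, and the other 8 high-score wells lie within or, for replicate 66 at 1398 CPM of the G2 and M list, just above the range of low-score wells.

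Chromatin and tubulin genes of dividing cells differed less, and low-score wells had reads of all 20. Of 20 genes, 10 were higher and 0 lower in the high-score group (median log2 ratio 0.91), 15 and 0 in the 5 highest wells (1.52), and 1 and 3 in the next 9 (0.00). The shares of all genes were 13.7% and 9.36%, 18.2% and 17.4%, and 12% and 11.7% in the same order. Stmn1, stathmin, which destabilises microtubules, read 4538, 303, 636, 893 and 1802 CPM in replicates 80, 51, 50, 58 and 89, against 0 to 743 in the next 9 wells and 0 to 263 in the low-score group. Tmpo, a nuclear lamina protein, read 1800.1, 348, 972, 422 and 449 CPM, against at most 327 in any other MEF well. Hmgb2, a chromatin protein of the HMG box family, read 63.4, 1618, 66, 113 and 448 CPM, and its log2 ratio of 2.52 dropped to 1.09 without replicate 51. The lamin gene Lmnb1 read 38, 1216, 18, 822 and 133 CPM, with up to 203 in the low-score group. For the tubulin genes Tubb5 and Tuba1b the whole-group means were 1018 against 858 and 648 against 521 CPM, under 2-fold.

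In 11 of the 9754 genes (0.113%), each of the 5 highest wells exceeded each of the 39 other MEF wells. They were Nusap1, Anln, Depdc1a and Pbk of the G2 and M list, Rrm2 of the S phase list, Tmpo and Hmgn2 of the chromatin list, and Cenpq, 4930547N16Rik, C79407 and Srsf1, which were in none. Cenpq, a centromere protein gene, read 171, 32.4, 60, 148 and 183 CPM in replicates 80, 51, 50, 58 and 89 and at most 32.1 elsewhere. Srsf1, a splicing factor gene, read 570.4, 333, 348, 334 and 286 CPM, against at most 282. Hmgn2 read 127, 188, 156, 175 and 389 CPM, against at most 90.9. The margin was narrow in several genes. The lowest of the 5 wells and the highest other well stood at 348 and 327 CPM for Tmpo, at 42 and 34.9 for Pbk and at 6 and 4.26 for C79407, where the lower well had 1 read, beside Cenpq and Srsf1. The gene 4930547N16Rik ranged from 10.1 to 349 CPM against at most 5.68. These genes were picked because of this pattern, so that it is no further evidence of it.

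Genes of the G1 machinery and the Rb pathway showed a mixed picture. Of 21 with enough reads, 7 were higher and 3 lower in the high-score group, beside 13.7% and 9.36% of all genes, with a median log2 ratio of 0.43. Ccnd1, cyclin D1, averaged 418 CPM against 366, a log2 ratio of 0.19, and ranged from 0 to 1164 and from 1.55 to 1517. Ccnd2, cyclin D2, was read in all 28 wells and reached 15856 CPM in replicate 50, and its ratio of 0.55 turned to -0.29 without that well. Cdk6 and E2f3 were higher in the next 9 wells (log2 ratios 3.16 and 2.89) and did not reach 2-fold higher in the 5 highest (-1.37 and 0.99). For Cdk6 only 3 high-score wells had reads, and its whole-group ratio of 2.55 dropped to 1.46 without replicate 71. The MuvB subunit gene Lin9 had a ratio of 2.02, which dropped to 0.81, under 2-fold, without replicate 50. Rb1, the retinoblastoma gene, averaged 7.59 CPM against 48.9, with a log2 ratio of -1.74.

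The inhibitor p21 did not distinguish the groups, while the genes of p15 and p16 were low in the 5 highest wells. Cdkn1a, which codes for p21, ranged from 429 to 4409.9 CPM in high-score wells (median 985) and from 222 to 4315 in low-score wells (median 1490.1), and its log2 ratio of means was -0.06. In the 5 highest wells it read 602, 1293, 1559.8, 611 and 1591 CPM, within the range of the others. Cdkn2b, which codes for p15, read 0, 13.5, 6, 30.8 and 17.1 CPM in replicates 80, 51, 50, 58 and 89. It ranged from 28.6 to 921 in the next 9 wells, from 24.2 to 387 in the wells between and from 0 to 609 in the low-score group, where 11 of 14 wells had reads. The 5 wells therefore lay at the bottom of the range, overlapping the lowest wells of each other group. Cdkn2a, which codes for p16 and p19Arf, read 0, 75.2, 66, 36.8 and 3.02 CPM, against medians of 105 in the next 9 wells, 144 in the wells between and 83.3 in the low-score group, with overlap. Over the 5 highest wells the log2 ratios to the low-score group were -3.05 for Cdkn2b and -1.89 for Cdkn2a, whereas over the whole group they were -0.16 and -0.25, and turned to 0.11 and 0.36 without the low-score replicate 82, the latter also becoming -1.14 without replicate 84. Cdkn2c, which codes for p18, another inhibitor of the same family, went the other way, with 0, 33.2, 0, 22.3 and 145 CPM in the 5 wells and no read in the next 9 or the low-score group. Its whole-group ratio of 1.28 dropped to 0.51, under 2-fold, without replicate 89. Cdkn2a and Cdkn2b had not been picked by the naming rule and were named after their values had been seen.

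Of the 29 p53 targets and arrest genes with enough reads, 5 were higher and 2 lower in the high-score group, beside 13.7% and 9.36% of all genes. The list's median log2 ratio of 0.39 compares with 0.10 for all genes. Pmaip1, the p53 target Noxa, ranged from 3.20 to 3771 CPM (median 379) against 0 to 598 (median 226), and its ratio of 1.67 dropped to 1.11 without replicate 89. The 4 negative control wells held 188 Pmaip1 reads, and the part of such stray reads in its levels was not tested. Trp53, which codes for p53, was read in 14 of 14 high-score and 9 of 14 low-score wells, at 13.1 to 298 and 0 to 101 CPM, a log2 ratio of 1.29. It was 1.60 for the 5 highest wells and 1.09 for the next 9, so that this gene differed in both parts of the group. Gadd45b, a stress response gene, averaged 107 CPM against 32.8, a ratio of 1.45 that became 2.47 without the low-score replicate 85.

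Part of the fibroblast genes were lower in the 5 highest wells than in the low-score group, a smaller part were higher, and the wells overlapped. Of 24 mesenchymal identity genes, 9 were lower and 3 higher in the 5 wells (median log2 ratio -0.56), and 3 lower and 4 higher in the next 9 (0.09), beside medians of -0.04 and 0.01 over all genes. Of all genes, 17.4% were lower and 18.2% higher in the 5 wells, and 11.7% lower and 12% higher in the next 9. The summed level of the list was 7415 to 14673 CPM in the 5 wells (median 10338), 10165 to 52319 in the next 9 (median 23039) and 6219 to 38033 in the low-score group (median 22076). S100a6, a calcium-binding protein gene, read 4424, 4842, 1872, 2667 and 3963 CPM in the 5 wells, against a median of 7218 in the low-score group with a range of 1150.0 to 21755. Thy1, a surface antigen of fibroblasts, read 6.34, 91.8, 78, 103 and 0 CPM in the 5 wells, against 0 to 1769 in the low-score group with a median of 11.7, so that its lower mean in the 5 wells came with a higher median. The genes higher in the 5 wells were Eng, Cav1 and Prrx2, with log2 ratios of 1.93, 1.36 and 1.15. Cav1, caveolin of the plasma membrane, read 44.4, 319.7, 708, 141 and 756 CPM there, against 0 to 461 in the low-score group (median 85.5). The wells between the groups were higher still for Cav1, with a mean of 1071 CPM, a median of 527 and a highest value of 5193. In the 5 wells its mean was 394 and its median 319.7, so that its level did not follow the score. The whole-group ratio of Cav1, 1.34 for high-score over low-score wells, dropped to 0.99 without replicate 54. Ly6a and Ly6c1, surface antigens of the Ly6 family, averaged 293 against 904 and 199 against 843 CPM. Their log2 ratios of -1.59 and -2.03 became -0.65 and -0.30 without the low-score replicate 83, and 63.9% of Ly6c1 reads over the plate were unique. Vim, vimentin, was read in all 28 wells with means of 3304 and 3149.7 CPM, a ratio of 0.07.

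Extracellular matrix genes had the same direction. Of 37, 11 were lower and 4 higher in the 5 highest wells (median log2 ratio -0.61), 7 lower and 1 higher in the next 9 (-0.38), and 6 lower and 1 higher in the whole group (-0.38). The shares of all genes were 17.4% lower and 18.2% higher in the 5 wells and 11.7% and 12% in the next 9. In the whole group they were 9.36% and 13.7%. The summed level was 24620.4 to 66457 CPM in the 5 wells and 30616 to 101214 in the low-score group, with medians of 37159.6 and 59914. Fn1, fibronectin, read 9235, 3975, 3054, 12452 and 11110.3 CPM in the 5 wells, within the low-score range of 2240.2 to 35830.4. Col1a1, a chain of type I collagen, averaged 1603 CPM in the high-score group and 1891 in the low-score group, and Col4a1, of basement membrane collagen, 458 against 1119.7, a ratio of -1.27. Sparc, a collagen-binding glycoprotein, read 1125 to 3778 CPM in the 5 wells, 1568 to 4405 in the next 9 and 1140.0 to 9438 in the low-score group. The single gene that was higher in the whole group, Lox, which cross-links collagen, averaged 1284 against 561 CPM, and its ratio of 1.18 dropped to 0.77 without replicate 80. Postn, periostin, had reads in 2 high-score and 5 low-score wells only. Of 33 actin cytoskeleton genes, 0 were higher and 4 lower, and Acta2, smooth muscle actin, averaged 1649 against 1529 CPM.

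**Figure D4:**
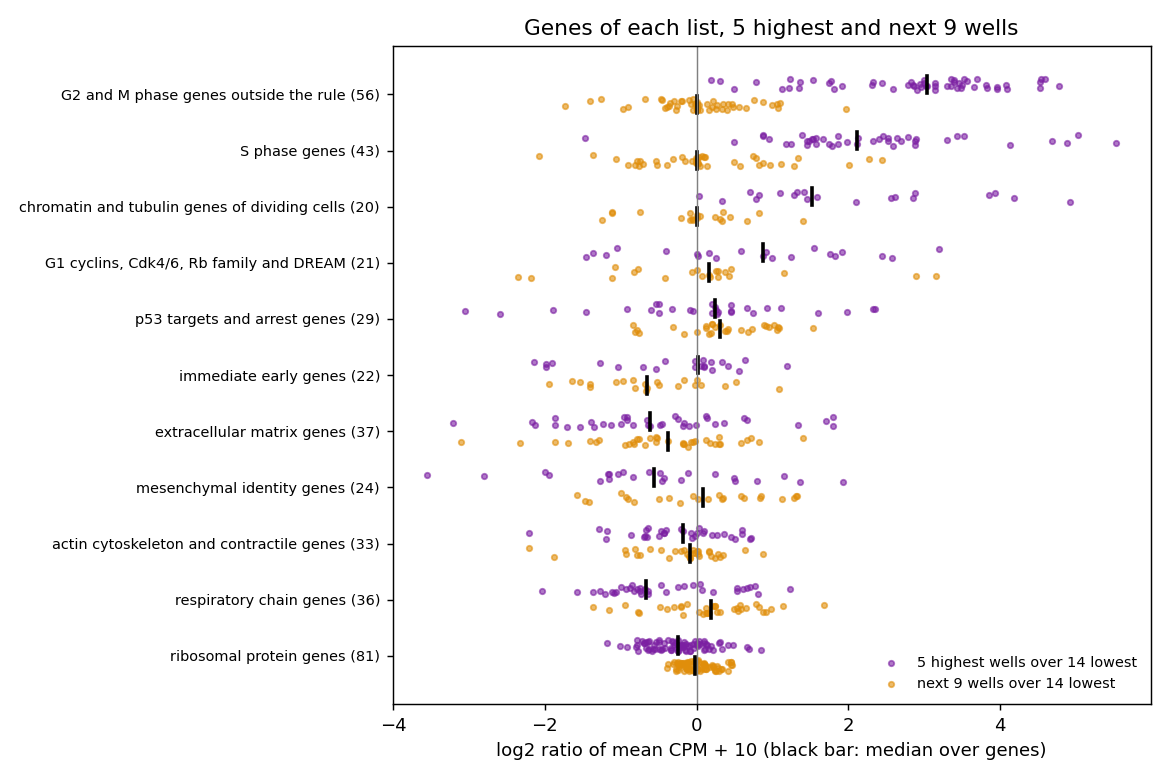
Log2 ratio of mean CPM + 10 to the 14 lowest wells for each tested gene of 11 lists, shown apart for the 5 highest wells and the next 9 wells; each point is 1 gene, black bars are list medians, and the number of genes is in brackets. The medians of the G2 and M, S phase and chromatin lists stand at 3.04, 2.12 and 1.52 for the 5 wells and at 0.00 for the next 9.

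Metabolic and stress genes had few calls in the whole group. Ribosomal protein genes, 81 of them, had 0 higher and 0 lower, with a median log2 ratio of -0.11, and the list's sum had medians of 131669 and 149688 CPM. Of 28 ribosome biogenesis genes, 5 were higher and 0 lower (median 0.20), among them Nop56, a snoRNP core protein gene, at 59.4 against 7.17 CPM on average. Of 36 respiratory chain genes, 2 were higher and 1 lower in the whole group (median -0.02), but 1 higher and 8 lower in the 5 highest wells (-0.66). The list's sum was 3683 to 11770.1 CPM in those 5 wells against 4501 to 15597 in the low-score group. Glycolysis genes were also lower in part in the 5 wells, 6 of 19 against 1 higher (median -0.63), beside 17.4% lower and 18.2% higher of all genes. Of 22 immediate early genes, 0 were higher and 3 (Zfp36, Fosb and Nr4a1) lower, with a median of -0.46. Of 22 heat shock and oxidative stress genes, 2 were higher and 1 lower. Of 30 translation factor genes, 1 was higher and 1 lower, of 19 glycolysis genes 1 and 2, and of 21 cholesterol synthesis genes 0 and 1. Beside the 13.7% and 9.36% of all genes, in the whole group only ribosome biogenesis (5 of 28) among these lists had a larger share higher, and only immediate early (3 of 22) and glycolysis genes (2 of 19) a larger share lower. These counts lay near the shares of all genes and are no result about the lists. With each well left out in turn, 3 ribosome biogenesis genes stayed higher, and 0 immediate early and 0 glycolysis genes stayed lower.

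Among growth factor and imprinted genes, Igf2 differed from the low-score group across the high-score group, but not from the wells between, and others differed in few wells. Igf2, a fetal growth factor, was read in 13 of 14 high-score wells with a median of 377 CPM, against 46.6 in the low-score group. It read 4164, 4705, 0, 425 and 2151 CPM in replicates 80, 51, 50, 58 and 89, up to 4967 in the whole group and up to 947 in the low-score group, with a log2 ratio of 3.11, or 3.84 without the low-score replicate 60. The 16 wells between the groups averaged 908 CPM, above the low-score mean of 144 and the mean of 778 in the next 9 wells. Their median of 399 CPM lay above the high-score median of 377, so that the level of Igf2 did not follow the score. The 4 negative control wells held 22 Igf2 reads, and the part of such stray reads in its levels was not tested. H19, its imprinted neighbour, averaged 718 against 720.4 CPM, with a log2 ratio of 1.58 without the low-score replicate 60 and -0.67 without the high-score replicate 88. Dlk1, another imprinted gene of fetal growth, had a ratio of 2.59 that dropped to 0.66 without replicate 80, where it read 1242 CPM. Igfbp2, an IGF binding protein gene, was high in single wells of the next 9, at up to 1265 CPM, and reached 4630.2 CPM in a well between the groups. Of 20 imprinted genes, 3 were higher and 3 lower. This count and the list counts that follow stand beside 13.7% higher and 9.36% lower of all genes. Of 18 secreted factor genes, 5 were higher and 2 lower, with Cxcl12, a chemokine gene read in all 28 wells, at 4.63 to 4278 CPM (median 851) against 15.6 to 2760.2 (median 264). Of 24 TGF-beta and YAP targets, 3 were higher and 4 lower, and the strongest, Igfbp3 at -3.03, became -1.36 without the low-score replicate 82.

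Among genes read in at least 7 wells of the higher group, those with the largest ratios that held in the upper 4 and in the lower 4 plate rows and with any single well left out were, on the higher side (158 genes in all), Tipin, 2810417H13Rik, Igfbp2, Stmn1, Trim59, Anln, Igf2, Bckdk, Rrm2, Rrm1, Tmpo and Fbxl12. Atad2, Ccne1 and Nusap1, at 3.63, 3.49 and 3.16, held as well but were read in 6, 6 and 5 high-score wells. Of the 12, 6 belonged to the S phase, G2 and M or chromatin lists (Tipin, Rrm1, Rrm2, Anln, Stmn1 and Tmpo). The PCNA-associated factor gene 2810417H13Rik read 2624, 369.6, 36, 288 and 928 CPM in the 5 highest wells and at most 64.4 in the low-score group, with a log2 ratio of 3.95, or 2.76 without replicate 80. Trim59, a tripartite motif protein gene, read 311, 687, 648, 355 and 381 CPM in those wells, up to 778 in the group and up to 155 in the low-score group, a ratio of 3.26 (4.07 without the low-score replicate 63). Bckdk, a kinase that controls branched-chain amino acid breakdown, was higher both in the 5 wells (3.19) and in the next 9 (2.88). Fbxl12, an F-box protein gene, was higher in the next 9 wells (3.25) and stood at 0.76 in the 5, and its whole-group ratio of 2.75 dropped to 1.5 without replicate 68. On the lower side (70 genes) stood Slc17a5, 2700081O15Rik, Tram1, Fabp5, Efnb1, Spcs2, Gnl1, Foxo1, Nob1, Cyb561d2, Cept1 and Stard13. Several of these had high values in few low-score wells. Slc17a5, a lysosomal sialic acid transporter gene, reached 1801 CPM in a low-score well at a group median of 5.11, against at most 6.63 in high-score wells, and its ratio of -4.37 became -3.20 without replicate 92. Spcs2, a signal peptidase subunit gene, had medians of 37.6 and 257 CPM, with a ratio of -2.70 that became -1.47 without replicate 83, and Gnl1, a GTP-binding protein gene, of 15.4 and 62.9.

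The genes most like the score over all 44 MEF wells, among those read in at least 11, reached a rank correlation of at most 0.59. Of 8347 genes with reads in at least 11 wells, Otud4, H2afv and Rrm1 had the highest Spearman correlation with the score (0.59 each), followed by Slc25a42 and Tmem184c (0.55), Styx (0.54), Nudcd2 and Bckdk (0.53), and Reep4 and Map2k4 (0.52). None of the 10 was in the G2 and M list, but the minimum of 11 wells had kept out such genes of it as Nusap1, Ndc80 and Foxm1. These had reads in 5, 4 and 4 high-score wells, 1, 0 and 1 low-score wells and 0, 0 and 1 wells between. Other genes of the list passed the minimum and were still not among the 10, such as Cenpf, read in 10 high-score wells, 7 low-score wells and 9 wells between. The minimum thus set only part of this absence, which is not read as a result. A rank correlation weighs the 39 wells of low score as much as the 5 of high score, and the wells share the library and the CPM denominator. The score genes themselves reached 0.31 (Aurkb) to 0.62 (Cdk1) against the score they entered. Otud4, a deubiquitinase gene, read 209, 136, 150.0, 343 and 277 CPM in the 5 wells, with group medians of 107 and 6.53. The histone variant gene H2afv read 507, 166, 246, 261 and 174 CPM there, with medians of 60.9 and 0.355.

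Markers of other cell types were low in most wells, with single wells above. Krt7 reached 137 CPM, Flt1 127, Krt19 117 and Kdr 103 in high-score wells, and Sox2 177 in a low-score well. Pecam1, Cdh5 and Krt8 had no read in any MEF well, and Csf1r and Ptprc none in either group. Of 17 macrophage and blood markers in the table, 12 were at 0 in all MEF wells, and the list's sum was 0 in all 5 highest wells, 0 to 113 CPM in the next 9 and 0 to 63.7 in the low-score group. Pluripotency markers summed to 6.34 to 91.1 CPM in the 5 wells and 15.6 to 218 in the low-score group, and Pou5f1, a defining ES cell gene, averaged 2.64 against 2.17 CPM. Endothelial markers summed to at most 44 CPM in the 5 wells, 127 in the next 9 and 91.1 in the low-score group, and epithelial markers to at most 137, 179 and 62.5. The part of such cells in the results was not tested. Neural and muscle markers summed to 0 to 339.6 CPM in the 5 wells and 0 to 3613 in the low-score group, with 4 of 5 tested genes lower in the high-score group, among them Tubb3, a neuronal tubulin gene, at 26.3 against 122 CPM. The fibroblast markers Col1a1, Fn1 and Vim were read in all 28 wells.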

How the data were processed

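STRT reads of 96 wells were taken as deposited. The authors' table holds raw read counts per gene, repeat type and spike-in RNA in each well, with no normalisation per the file headers. Reads were aligned with Bowtie, per the submitters' processing notes. Its version, the build and the annotation are not given in the sources used here. The file headers state that reads with alternative mappings are included and that variants at 1 locus share counts. A further deposited column of uniquely mapped reads gives 92.7% of gene reads as unique. No molecular identifiers are mentioned, so intervals and floors cover counting error only.

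Counts of 21711 gene rows were scaled to CPM per well, and 1217 repeat and 8 spike-in rows were kept out of the total. Wells were ranked by the summed CPM of Ccnb1, Ccnb2, Cdk1, Top2a, Plk1, Aurka, Aurkb, Bub1, Cdc20, Cenpa, Cenpe, Birc5, Ube2c, Mki67, Ccna2, Tpx2, Hmmr and Kif11. Genes with at least 100 reads over 28 wells were compared by the log2 ratio of mean CPM + 10, and 2-fold set the calls. Named genes were the 12 highest and 12 lowest that had reads in at least 7 wells of the higher group and held with each well left out, in pooled sums and in the upper 4 and the lower 4 plate rows. The 3 largest members of each list, 11 preset genes and the 10 most like the score were added, and any other gene was chosen once its values had been seen. The score genes and lists were chosen with earlier results of these data known. Wells were thinned to 60000 reads for detection. The scripts were tested on simulated data and used Python 3.11.15, numpy 2.4.6, pandas 2.3.3 and scipy 1.17.1. Alternatives were other scalings, pseudocounts, read minimums, scores, group sizes, plate rows and wells left out.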

Additional observations from a re-analysis of the deposited data

How the results depend on the processing

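The 5 wells of highest score were in the high-score group under each of the 4 other ways to score the wells. All 4 ways drew on the same score genes or a part of them, so this was no independent check. The other members changed. Of 14 high-score and 14 low-score wells, 12 and 13 were kept with the mean log2 score and 11 and 9 with thinned counts. With odd-placed score genes alone 12 and 8 were kept, and with even-placed ones 9 and 10. Of 403 list, count and depth values recomputed under settings chosen beforehand, 387 kept their direction and size, 15 moved and 1 reversed, and of 113 under settings chosen after seeing the data 6 moved. The cause was not tested. The number of genes at least 2-fold higher in high-score wells, 1338, was 2254 with spike-in scaling, 2356 and 248 with 1 and 50 CPM added, 730 with at least 500 reads and 808 with 22 wells a group. The number of genes at least 2-fold lower in high-score wells, 913, was 1558, 197, 534 and 587 with 1 CPM, 50 CPM, 500 reads and 22 wells, 1612 in plate rows E to H, 1670 for the 5 highest wells with the read minimum taken over those 19 wells and 519 by medians. Spike-in scaling moved the median of all genes from 0.10 to 0.38 and the summed glycolysis level to 0.75 (log2). Neural and muscle markers, at -1.50, reversed to 0.07 when the score used every other gene. Rows E to H alone gave -0.55 for p53 targets, 0.44 for heat shock, 0.58 for pluripotency and -1.04 for macrophage genes. Without the 5 highest wells the summed G2 and M level dropped from 2.24 to 0.44 and S phase from 2.23 to 0.43. The 5 wells alone gave -0.91 for mesenchymal and -0.55 for macrophage genes. With single wells left out the counts ran from 1282 to 1443 higher and from 867 to 985 lower genes. No paired analysis was possible because the result comes from no test and the groups share no replicate numbers. Replicates 80 and 50, with 157772 and 166691 gene reads, limit what can be said of genes unread in them. The same holds at the low end, where replicates 53 and 85, with scores of 0, had 63938 and 168428 gene reads. Replicate 82 had its score of 4.35 CPM from 1 read. The lowest ranks thus rest on few or no reads of score genes.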
